A study of Oryza sativa with 8 samples.

Results

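The cytokinin and gibberellin pathway genes of rice (Oryza sativa) were read from the annotation of a deposited table of transcripts from the shoot apical meristem. A locus was a member where its annotation named cytokinin, a response regulator, an isopentenyltransferase, gibberellin, GID1, GASA or DELLA. Pseudo-response regulators, cytochromes P450 and 6 further loci were left out by the same rule, among them the cytokinin dehydrogenase Os01t0197700. The rule gave 78 of 36819 loci, 45 assigned to cytokinin, 24 to gibberellin and 9 that matched its words but were assigned to neither. The word DELLA occurred in 0 annotations.

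RNA sequencing covered 3 libraries labelled OsglHAT1-OE, transgenic plants in the Nipponbare background, and 3 labelled GW6a-4.6, a substitution line in which a genomic fragment of the cultivar Kasalath replaces that of Nipponbare. The other 2 libraries are labelled Nipponbare, and the cultivar label of all 8 is Nipponbare. OsglHAT1 is the histone H4 acetyltransferase gene behind the grain weight locus GW6a, and the lines were set against Nipponbare to ask which transcripts go with it. The promoter of the transgene, the number of transgenic events, the borders of the Kasalath fragment, the age of the plants and the number of plants in a library are not given in the sources used here. Nothing says that replicates came from separate plants, so p-values measure the spread between these libraries, which may be technical.

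Cytokinins are adenine-derived hormones that keep shoot meristem cells dividing. Isopentenyltransferases start their synthesis, LOG-type phosphoribohydrolases release the active base, and cytokinin dehydrogenases and glucosyltransferases remove it. Membrane histidine kinases sense cytokinin and pass a phosphate through carrier proteins to response regulators: B-type regulators are DNA-binding transcription factors, while A-type regulators lack that part, are induced by cytokinin and dampen the signal. Gibberellins drive stem elongation. They are made by 20-oxidases, inactivated by 2-beta-dioxygenases and sensed by the receptor GID1, which leads to loss of the DELLA repressors, and KNOX homeobox proteins of the meristem are known in tobacco to repress a gibberellin 20-oxidase gene.

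Values below are the deposited signal of a transcript, which the file calls RPM, counted at each transcript model that a read aligned to. The library totals were 5207710 to 7667853 reads, and 3 reads were worth a value of 0.391 to 0.576. OsglHAT1-OE replicate 3 held 2.41 alignments per read, fewer than any other library. The GW6a/OsglHAT1 transcript Os06t0650300 itself went against the labels, with values of 13.2, 8.87 and 10.02 in OsglHAT1-OE, 2642, 2573 and 2913 in GW6a-4.6, and 1.46 and 2.3 in Nipponbare, so groups are named by their labels and no direction is read against the level of that transcript. Exchanged labels of the lines and a transgene transcript unlike the annotated model cannot be told apart from these values, so every value of a line, and every direction between the lines, holds for the label and not for a checked genotype. The meristem genes OSH1 (Os03t0727000) and OSH15 (Os07t0129700) were detected in every library. A log2 change is the limma estimate on log2(value + 1) and understates the change of low genes, a fold is the ratio of group means, and a locus was called at an adjusted p under 0.05 over all 31487 tested loci. In such bulk tissue, fewer cells of a type and less RNA per cell cannot be told apart. The files hold no transcript lengths, so levels are compared between libraries only.

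Of the 78 members, 61 passed the filter on low values. In the libraries labelled OsglHAT1-OE, 27 members were called higher and 11 lower than in Nipponbare, where 52.5% of all tested loci were called, 22.8% higher and 29.7% lower. In those labelled GW6a-4.6, 25 members were higher and 12 lower, where 46.3% of loci were called, 26.7% higher and 19.5% lower. Both comparisons use the same Nipponbare libraries. A log2 change of at least 1 was reached by 17 of the members higher and 9 of those lower in OsglHAT1-OE (8.82% and 12.5% of all loci), and by 14 and 7 in GW6a-4.6 (10.5% and 6.45%). The libraries of a line lay wholly above both of Nipponbare at 31 members in OsglHAT1-OE and 30 in GW6a-4.6 (29% and 36% of loci), and wholly below at 16 and 15 (37.9% and 28.5%). Of 34 tested cytokinin loci, 18 were higher and 2 lower in OsglHAT1-OE, with a median log2 change of 0.55 against -0.08 over all loci. In GW6a-4.6, 17 cytokinin loci were higher and 2 lower, with a median of 0.56 against 0.07 over all loci. Of 21 tested gibberellin loci, 4 were higher and 9 lower in OsglHAT1-OE (median -0.31), and 5 were higher and 10 lower in GW6a-4.6 (median -0.23).

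Among marker lists, core histone loci were mostly higher and seed and desiccation loci mostly lower in both lines, while leaf, meristem and root loci moved both ways. Of 55 tested core histone loci, which mark dividing cells, 51 were higher and 1 lower in OsglHAT1-OE and 48 and 1 in GW6a-4.6. The whole list summed to values between 13671 and 16281 in OsglHAT1-OE, 10361 and 12454 in GW6a-4.6, and 4338 and 4534 in Nipponbare. Of 31 tested seed and desiccation loci, 22 were lower in each line and 2 (OsglHAT1-OE) and 3 (GW6a-4.6) higher (without Nipponbare replicate 1, 14 were lower in GW6a-4.6), and their sums were 871 to 1033 in OsglHAT1-OE, 1078 to 1175 in GW6a-4.6 and 4022 to 4455 in Nipponbare. Of that list, 2 loci were at 0 in every library. The sums of 28 leaf loci overlapped between the groups (3677 to 4444 in OsglHAT1-OE, 2995 to 3772 in GW6a-4.6 and 3279 to 3674 in Nipponbare, 2 loci at 0). Of 25 tested leaf loci, 7 were higher and 1 lower in OsglHAT1-OE, and 5 higher and 3 lower in GW6a-4.6. Of 10 tested KNOX-type meristem loci, 4 were higher in each line, and 3 were lower in OsglHAT1-OE and 1 in GW6a-4.6; without Nipponbare replicate 1 or OsglHAT1-OE replicate 2, 2 were higher in OsglHAT1-OE. All 11 meristem loci together summed to 394 to 477 in OsglHAT1-OE, 577 to 592 in GW6a-4.6 and 383 to 385 in Nipponbare, with 0 of them at 0 throughout. The 19 root loci, none at 0 in every library, summed to 210.5 to 269.8 in OsglHAT1-OE, 223 to 249.5 in GW6a-4.6 and 325 to 328 in Nipponbare. Of 17 tested root loci, 5 were higher and 7 lower in OsglHAT1-OE, and 4 higher and 6 lower in GW6a-4.6. Over all loci, 22.8% were higher and 29.7% lower in OsglHAT1-OE, and 26.7% and 19.5% in GW6a-4.6. The part of these differences in the hormone genes' values was not tested.

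The A-type response regulators, the cytokinin-induced dampers of the signal, were the family with the most calls in 1 direction. Of 11 loci, all tested, 10 were higher and 0 lower in OsglHAT1-OE, and 9 were higher and 0 lower in GW6a-4.6. The shares of all loci were 22.8% higher and 29.7% lower in OsglHAT1-OE, and 26.7% and 19.5% in GW6a-4.6. Their median log2 change was 1.41 in OsglHAT1-OE and 1.06 in GW6a-4.6. The 3 OsglHAT1-OE libraries lay wholly above both Nipponbare libraries at 10 of these A-type loci (29% of all loci), and the 3 GW6a-4.6 libraries did so at 11 (36% of all loci). The summed values of the family were 381 to 478 in OsglHAT1-OE, 382 to 408 in GW6a-4.6 and 207 to 238 in Nipponbare.

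The widest log2 changes of the family were at loci with few reads in Nipponbare. Os07t0449700 had values of 6.16, 7.56 and 8.99 in OsglHAT1-OE, 11.8, 8.03 and 9.42 in GW6a-4.6, and 1.17 and 0.768 in Nipponbare. Every library of either line stood several times above both Nipponbare libraries, and the lines overlapped each other. The transcript was 7.81-fold higher (log2 change 2.12, SE 0.27, adjusted p = 2.07e-08) in OsglHAT1-OE and 10.1-fold higher (log2 change 2.44, SE 0.27, adjusted p = 1.16e-09) in GW6a-4.6 than in Nipponbare. Os02t0830200 behaved alike, with values of 4.99, 7.82 and 5.16 in OsglHAT1-OE, 8.93, 9.18 and 6.52 in GW6a-4.6, and 1.17 and 0.384 in Nipponbare. It was 7.71-fold higher (log2 change 1.99, SE 0.29, adjusted p = 3.14e-07) in OsglHAT1-OE and 10.6-fold higher (log2 change 2.40, SE 0.29, adjusted p = 8.82e-09) in GW6a-4.6. Os04t0524300 was near its floor in Nipponbare, where both values were under 1, and held values of 4.7, 4.96 and 4.13 in OsglHAT1-OE, 3.39, 3.06 and 3.26 in GW6a-4.6, and 0.585 and 0.192 in Nipponbare. Both lines were clear of Nipponbare and of each other, with OsglHAT1-OE 11.8-fold higher (log2 change 2.02, SE 0.30, adjusted p = 4.2e-07) and GW6a-4.6 8.33-fold higher (log2 change 1.62, SE 0.30, adjusted p = 2.26e-05).

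Several A-type loci with more reads ordered the 3 groups the same way, OsglHAT1-OE highest and Nipponbare lowest. Os04t0673300 had values of 43.4, 43.04 and 39.9 in OsglHAT1-OE, 37.8, 26.00 and 29.7 in GW6a-4.6, and 9.65 and 10.4 in Nipponbare, and no groups overlapped. It was 4.21-fold higher (log2 change 1.97, SE 0.17, adjusted p = 1.22e-12) in OsglHAT1-OE and 3.11-fold higher (log2 change 1.53, SE 0.17, adjusted p = 9.21e-10) in GW6a-4.6 than in Nipponbare, and 1.35-fold higher (log2 change 0.44, SE 0.15, adjusted p = 0.0221) in OsglHAT1-OE than in GW6a-4.6, a call between the lines that was lost when replicate 2 or 3 of GW6a-4.6 or replicate 1 or 2 of OsglHAT1-OE was left out. Os04t0442300, with values of 59.1, 63.9 and 53.8 in OsglHAT1-OE, 43.4, 47.02 and 49.4 in GW6a-4.6, and 20.6 and 15.7 in Nipponbare, showed the same order without overlap. It rose in OsglHAT1-OE (log2 change 1.65, adjusted p = 2.3e-12) and in GW6a-4.6 (log2 change 1.32, adjusted p = 8.38e-10). Its call between the lines was lost under 6 of 19 alternatives, among them leaving out any 1 library of GW6a-4.6. Os02t0557800 reached values of 121, 125 and 101 in OsglHAT1-OE, 104, 96.7 and 93.1 in GW6a-4.6, and 46.5 and 46.5 in Nipponbare, so the lines overlapped each other well above Nipponbare. It was 2.48-fold higher (log2 change 1.29, SE 0.11, adjusted p = 2.88e-12) in OsglHAT1-OE and 2.1-fold higher (log2 change 1.06, SE 0.11, adjusted p = 5.73e-10) in GW6a-4.6.

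At 3 further A-type loci the libraries labelled OsglHAT1-OE also stood above those labelled GW6a-4.6. Os12t0139400 had values of 51.1, 58.7 and 37.6 in OsglHAT1-OE, 30.3, 26.95 and 24.1 in GW6a-4.6, and 18.1 and 17.1 in Nipponbare, which put every OsglHAT1-OE library above every GW6a-4.6 one. It was 2.79-fold higher (log2 change 1.41, SE 0.17, adjusted p = 4.98e-09) in OsglHAT1-OE and 1.54-fold higher (log2 change 0.59, SE 0.17, adjusted p = 0.00383) in GW6a-4.6 than in Nipponbare, and 1.81-fold higher (log2 change 0.82, SE 0.15, adjusted p = 4.34e-05) between the lines. Os11t0143300 had values of 41.2, 43.9 and 32.3 in OsglHAT1-OE, 27.3, 28.5 and 24.4 in GW6a-4.6, and 18.3 and 12.3 in Nipponbare, with the 3 groups apart. It was 2.56-fold higher (log2 change 1.32, SE 0.17, adjusted p = 5.07e-08) in OsglHAT1-OE and 1.75-fold higher (log2 change 0.79, SE 0.17, adjusted p = 0.000278) in GW6a-4.6. Its call between the lines was lost without GW6a-4.6 replicate 3 or OsglHAT1-OE replicate 2. The ends of chromosomes 11 and 12 of rice are known as duplicated, and reads of this pair may be shared. Os02t0631700 had values of 4.7, 4.43 and 5.6 in OsglHAT1-OE, 2.5, 2.29 and 3.26 in GW6a-4.6, and 1.46 and 1.15 in Nipponbare, with the 3 groups again apart. It rose in OsglHAT1-OE (log2 change 1.36, SE 0.29, adjusted p = 0.00018), while its log2 change of 0.67 in GW6a-4.6 was not called (adjusted p = 0.0601). Its call between the lines was lost under 6 of 19 alternatives, among them leaving out any 1 library of OsglHAT1-OE or replicate 1 or 2 of GW6a-4.6.

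The remaining A-type loci changed least. Os01t0952500 had values of 45.6, 46.4 and 42.3 in OsglHAT1-OE, 52.3, 48.9 and 46.5 in GW6a-4.6, and 41.7 and 26.3 in Nipponbare, with the Nipponbare libraries further apart than those of either line, and was called higher in OsglHAT1-OE (log2 change 0.42, adjusted p = 0.0173) and in GW6a-4.6 (log2 change 0.56, adjusted p = 0.0024). Without Nipponbare replicate 2 both calls were lost, at log2 changes of 0.10 in OsglHAT1-OE and 0.23 in GW6a-4.6, and that of OsglHAT1-OE was also lost without its own replicate 2 (log2 change 0.40). Os04t0494400, annotated as similar to the maize regulator RR4, was called against Nipponbare in neither line. Its values were 75.6, 72.1 and 50.9 in OsglHAT1-OE, 86.8, 84.9 and 94.2 in GW6a-4.6, and 78.99 and 76.4 in Nipponbare, and its log2 changes were -0.25 (OsglHAT1-OE, adjusted p = 0.104) and 0.19 (GW6a-4.6, adjusted p = 0.247). It was the A-type locus that was lower in OsglHAT1-OE than in GW6a-4.6 (log2 change -0.43, SE 0.12, adjusted p = 0.00331).

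**Figure D1:**
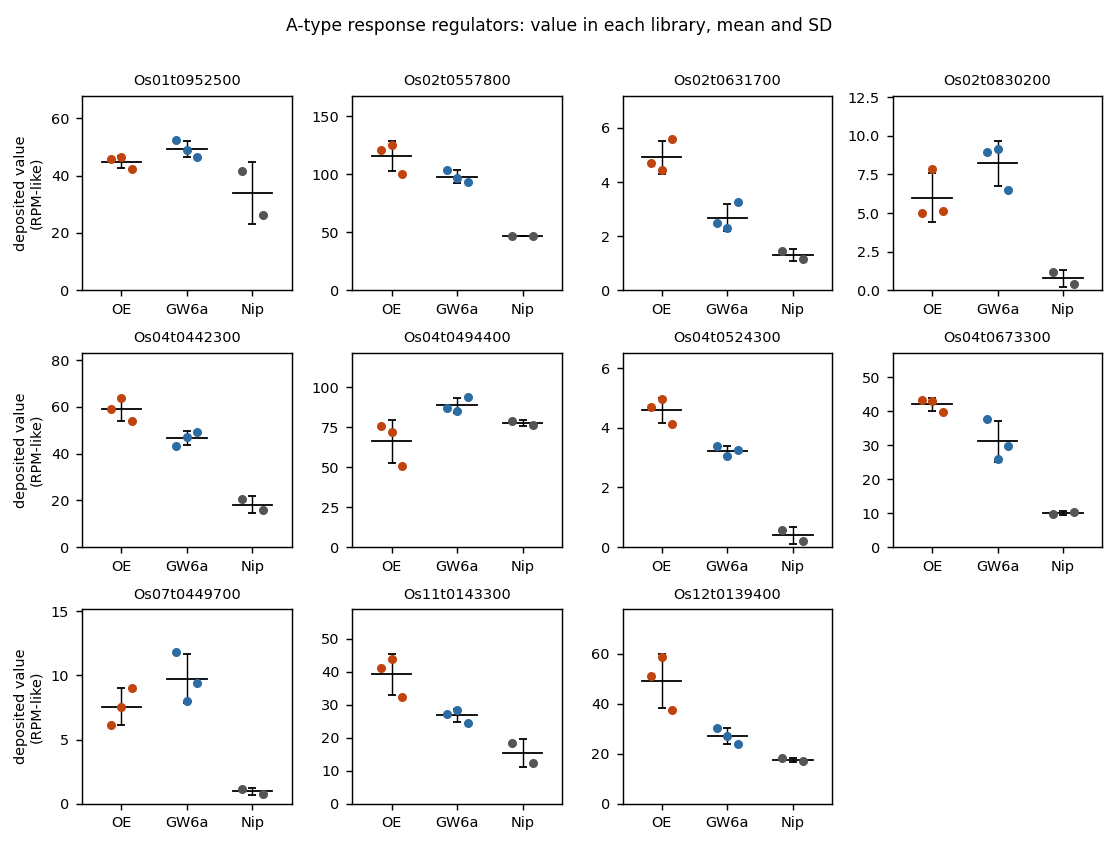
Deposited RPM-like value (linear axis from 0) of the 11 A-type response regulators in the libraries labelled OsglHAT1-OE (OE, n = 3), GW6a-4.6 (GW6a, n = 3) and Nipponbare (Nip, n = 2). Points are libraries, the long bar is the mean and the whiskers are the SD; both lines lie above Nipponbare in every panel but that of Os04t0494400, where OsglHAT1-OE lies below it.

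The B-type response regulators, the transcription factors at the end of the cytokinin relay, rose at 4 of 7 tested loci in each line and fell at 0, with median log2 changes of 0.58 in OsglHAT1-OE and 0.42 in GW6a-4.6. Among all loci, 22.8% rose and 29.7% fell in OsglHAT1-OE, and 26.7% rose and 19.5% fell in GW6a-4.6. Os01t0971800, annotated as similar to Arabidopsis ARR11, moved furthest, with values of 16.7, 15.9 and 17.4 in OsglHAT1-OE, 12.9, 9.56 and 10.9 in GW6a-4.6, and 4.68 and 4.61 in Nipponbare. The 3 groups did not overlap, and it was 3.59-fold higher (log2 change 1.65, SE 0.22, adjusted p = 5.93e-08) in OsglHAT1-OE and 2.39-fold higher (log2 change 1.09, SE 0.22, adjusted p = 8.77e-05) in GW6a-4.6. Os03t0766500, similar to ARR1, had values of 4.7, 5.87 and 3.83 in OsglHAT1-OE, 7.14, 6.5 and 6.88 in GW6a-4.6, and 2.05 and 3.84 in Nipponbare. It rose in GW6a-4.6 (log2 change 1.03, SE 0.28, adjusted p = 0.00247), a call lost without Nipponbare replicate 1, and its log2 change of 0.58 in OsglHAT1-OE, whose lowest library fell below Nipponbare replicate 2, was not called (adjusted p = 0.079). Os03t0224200, the B-type locus with the highest values, showed no call, at 147, 141 and 141 in OsglHAT1-OE, 133, 128 and 135 in GW6a-4.6, and 126 and 149.6 in Nipponbare, and the log2 changes of 0.06 and -0.06 against Nipponbare lay within the spread of its libraries.

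Smaller rises made up the rest of the B-type calls. Os02t0796500 was higher in OsglHAT1-OE (log2 change 0.73, adjusted p = 5.73e-07) and GW6a-4.6 (log2 change 0.55, adjusted p = 6.04e-05), and so was Os06t0183100 (log2 change 0.40, adjusted p = 0.00488 and, for GW6a-4.6, log2 change 0.42, adjusted p = 0.00423). The calls of Os06t0183100 were lost without Nipponbare replicate 2, at log2 changes of 0.33 in OsglHAT1-OE and 0.35 in GW6a-4.6. Os01t0904700 had values of 114, 129 and 103 in OsglHAT1-OE, 71.8, 92.1 and 77.5 in GW6a-4.6, and 70.8 and 65.1 in Nipponbare. It rose in OsglHAT1-OE (log2 change 0.75, SE 0.12, adjusted p = 1.48e-06) and was not called in GW6a-4.6 (log2 change 0.23, adjusted p = 0.104); the lines themselves differed by a log2 change of 0.51 (adjusted p = 0.00021). Os02t0182100 was called in neither line, and Os06t0647200 had too few reads to be tested. Under median-ratio scaling, quantile normalization or edgeR, 6 B-type loci were higher in OsglHAT1-OE, with Os02t0182100 and Os03t0766500 gaining calls.

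Of the 3 kinases annotated to cytokinin signalling, 1 rose, 1 fell and 1 was not called in each line. The histidine kinase Os03t0717700, a sensor at the head of the relay, had values of 147, 154 and 156 in OsglHAT1-OE, 106, 122 and 117 in GW6a-4.6, and 83.4 and 72.4 in Nipponbare, with all 3 groups apart. It was 1.95-fold higher (log2 change 0.96, SE 0.10, adjusted p = 4.6e-10) in OsglHAT1-OE and 1.48-fold higher (log2 change 0.56, SE 0.10, adjusted p = 2.26e-05) in GW6a-4.6, and the lines differed by a log2 change of 0.40 (adjusted p = 0.000846). The receptor-like serine/threonine kinase Os12t0454800 ran the other way, at 8.51, 7.56 and 6.63 in OsglHAT1-OE, 9.1, 9.18 and 9.78 in GW6a-4.6, and 26.5 and 28.8 in Nipponbare. Every library of both lines was far below Nipponbare, with OsglHAT1-OE 3.65-fold lower (log2 change -1.75, SE 0.21, adjusted p = 8.86e-09) and GW6a-4.6 2.96-fold lower (log2 change -1.47, SE 0.21, adjusted p = 4.12e-07). The second histidine kinase, Os02t0738400, had values between 58.0 and 75.4 in all 8 libraries and was not called. It was called higher in OsglHAT1-OE than in Nipponbare under median-ratio scaling, quantile normalization and edgeR.

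Few of the enzymes that make or remove cytokinin were called. The LOG-type phosphoribohydrolase Os02t0628000, annotated LOGL2, which releases the active base, was the widest of these changes, with values of 17.3, 17.1 and 12.8 in OsglHAT1-OE, 13.2, 11.1 and 10.7 in GW6a-4.6, and 2.93 and 2.88 in Nipponbare. Both lines stood well above Nipponbare, OsglHAT1-OE being 5.42-fold higher (log2 change 2.09, SE 0.23, adjusted p = 8.41e-10) and GW6a-4.6 4.02-fold higher (log2 change 1.69, SE 0.23, adjusted p = 1.13e-07). The locus annotated as similar to LOG itself, Os01t0588900, had values of 12.5, 14.3 and 10.3 in OsglHAT1-OE, 20.3, 20.1 and 19.4 in GW6a-4.6, and 12.1 and 19.01 in Nipponbare. Neither line was called against Nipponbare, whose 2 libraries were apart from each other, and OsglHAT1-OE was 1.61-fold lower (log2 change -0.66, SE 0.18, adjusted p = 0.00537) than GW6a-4.6, a call lost under quantile normalization. The isopentenyltransferase-like Os03t0810100 rose narrowly in OsglHAT1-OE (log2 change 0.69, adjusted p = 0.0444) and GW6a-4.6 (log2 change 0.70, adjusted p = 0.0446), with values of 4.59 to 9.6 in the 6 libraries of the lines, against 3.22 and 3.84 in Nipponbare. Its call in OsglHAT1-OE was lost under 7 of 19 alternatives and that in GW6a-4.6 under 11, in both lines when either Nipponbare library was left out: without replicate 1 the log2 changes were 0.59 in OsglHAT1-OE and 0.60 in GW6a-4.6, and without replicate 2 they were 0.79 and 0.80. Leaving out replicate 1 or 3 of OsglHAT1-OE ended the call of that line, and leaving out replicate 3 of GW6a-4.6 or of OsglHAT1-OE ended that of GW6a-4.6. The tRNA isopentenyltransferase Os01t0968700 had values of 36.99, 36.9 and 30.96 in OsglHAT1-OE, 42.1, 46.4 and 46.2 in GW6a-4.6, and 44.5 and 42.8 in Nipponbare and was not called against Nipponbare.

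Among 5 tested cytokinin dehydrogenases, which break the hormone down, only Os08t0460600 was called against Nipponbare. This locus, similar to cytokinin dehydrogenase 11, had values of 27.3, 22.04 and 20.6 in OsglHAT1-OE, 27.1, 24.5 and 23.9 in GW6a-4.6, and 10.5 and 8.45 in Nipponbare. Both lines lay clear of Nipponbare and overlapped each other, with OsglHAT1-OE 2.46-fold higher (log2 change 1.21, SE 0.18, adjusted p = 7.67e-07) and GW6a-4.6 2.65-fold higher (log2 change 1.32, SE 0.18, adjusted p = 1.82e-07). Os01t0187600, similar to cytokinin dehydrogenase 1, had values of 5.58, 5.48 and 2.8 in OsglHAT1-OE, 1.61, 1.91 and 1.81 in GW6a-4.6, and 3.22 and 2.69 in Nipponbare, and differed between the lines alone, being 2.6-fold higher (log2 change 0.97, SE 0.27, adjusted p = 0.00534) in OsglHAT1-OE. The dehydrogenase locus left out by the rule, Os01t0197700, ran against Os08t0460600, at 2.05, 1.83 and 1.62 in OsglHAT1-OE, 2.5, 0.382 and 0.362 in GW6a-4.6, and 9.8 and 10.8 in Nipponbare, and fell in OsglHAT1-OE (log2 change -1.99, adjusted p = 5.63e-06) and in GW6a-4.6 (log2 change -2.59, adjusted p = 5.69e-08).

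Of 10 loci annotated as cytokinin glucosyltransferases, which store the hormone as inactive sugar conjugates, 4 had enough reads to be tested. Os07t0241700 fell, with values of 1.03, 1.56 and 1.47 in OsglHAT1-OE, 2.5, 4.78 and 2.35 in GW6a-4.6, and 6.29 and 5.57 in Nipponbare. The groups were apart, and it was 4.37-fold lower (log2 change -1.56, SE 0.31, adjusted p = 4.98e-05) in OsglHAT1-OE and 1.85-fold lower (log2 change -0.76, SE 0.31, adjusted p = 0.0405) in GW6a-4.6; the call in GW6a-4.6 was lost under 7 of 19 alternatives, among them leaving out either Nipponbare library or replicate 1 or 3 of GW6a-4.6. Os07t0489950, the locus of this role with the highest values, was called in neither line against Nipponbare (log2 changes 0.16 in OsglHAT1-OE and -0.37 in GW6a-4.6).

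**Figure D2:**
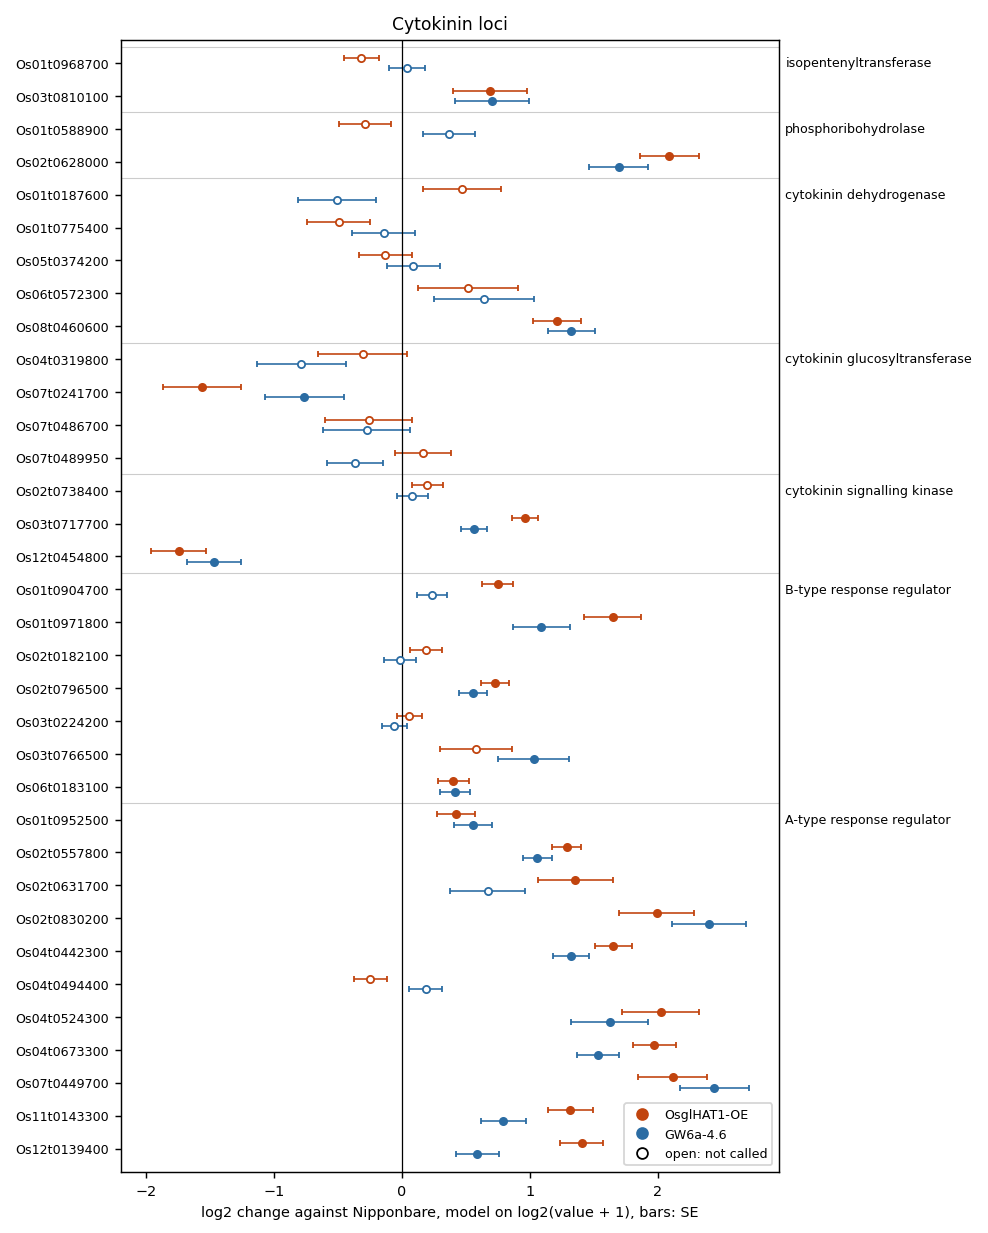
Log2 change against Nipponbare of the 34 tested cytokinin loci, ordered by role from synthesis to response, from the model on log2(value + 1), with bars for the SE. OsglHAT1-OE is drawn above GW6a-4.6 in each row, filled points are called at an adjusted p under 0.05, and most filled points lie right of 0, the exceptions being Os07t0241700 and Os12t0454800.

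Of 2 tested gibberellin 20-oxidases, 0 were called in OsglHAT1-OE and 1 was lower in GW6a-4.6. The 20-oxidase Os03t0856700, annotated gibberellin 20-oxidase 1, catalyses the late steps of synthesis and had values of 13.9, 15.00 and 9.29 in OsglHAT1-OE, 7.85, 4.59 and 6.34 in GW6a-4.6, and 17.3 and 19.2 in Nipponbare. All 6 libraries of the lines were below both Nipponbare libraries, and GW6a-4.6 was below OsglHAT1-OE as well. It fell in GW6a-4.6, where it was 2.91-fold lower (log2 change -1.43, SE 0.24, adjusted p = 4.84e-06), while the log2 change of -0.51 in OsglHAT1-OE was not called (adjusted p = 0.0719). Between the lines it was 2.04-fold higher (log2 change 0.92, SE 0.21, adjusted p = 0.000865) in OsglHAT1-OE. The other tested 20-oxidase, Os08t0560000, had values of 17.6, 15.1 and 15.6 in OsglHAT1-OE, 15.4, 19.1 and 17.7 in GW6a-4.6, and 15.5 and 13.4 in Nipponbare, which overlapped throughout.

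Both loci similar to gibberellin 2-beta-dioxygenases, which inactivate the hormone, were called in each line, in opposite directions. Os05t0560900 had values of 4.84, 4.83 and 5.9 in OsglHAT1-OE, 5.18, 3.63 and 4.71 in GW6a-4.6, and 0 and 0 in Nipponbare. These values are of the model whose annotation matched the rule, which was not the highest-mean model of the locus. Neither Nipponbare library held a read of this model, so the folds are set against 3 reads over the Nipponbare group. On that basis OsglHAT1-OE was at least 20.8-fold higher (log2 change 2.62, SE 0.30, adjusted p = 1.41e-09) and GW6a-4.6 at least 18.1-fold higher (log2 change 2.45, SE 0.30, adjusted p = 8.93e-09). Os05t0208550 had values of 1.47, 2.61 and 1.47 in OsglHAT1-OE, 1.43, 2.29 and 1.81 in GW6a-4.6, and 5.56 and 5.38 in Nipponbare, and both lines were below Nipponbare without overlap. It was 2.96-fold lower (log2 change -1.21, SE 0.31, adjusted p = 0.00114) in OsglHAT1-OE and 2.96-fold lower (log2 change -1.20, SE 0.31, adjusted p = 0.00148) in GW6a-4.6.

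Loci similar to the receptor GID1L2, relatives of the gibberellin receptor, fell at 2 of 3 tested loci in each line, and at 1 of 2 without either Nipponbare library, when Os08t0474866 no longer passed the filter. Among all loci, 29.7% were lower in OsglHAT1-OE and 19.5% in GW6a-4.6. Os06t0214850 had values of 44.03, 35.5 and 26.98 in OsglHAT1-OE, 52.8, 43.6 and 48.2 in GW6a-4.6, and 83.7 and 67.6 in Nipponbare. Nipponbare was above every library of the lines, and the transcript was 2.13-fold lower (log2 change -1.09, SE 0.15, adjusted p = 1.57e-07) in OsglHAT1-OE and 1.57-fold lower (log2 change -0.64, SE 0.15, adjusted p = 0.000754) in GW6a-4.6. Os08t0474866 was close to absent from the lines, with values of 0.147, 0.522 and 0.147 in OsglHAT1-OE, 0, 0.191 and 0 in GW6a-4.6, and 6.73 and 5.38 in Nipponbare. The 6 reads of OsglHAT1-OE made it 22.3-fold lower (log2 change -2.48, SE 0.34, adjusted p = 9.21e-08), and the 1 read of GW6a-4.6 gave a ratio to Nipponbare of 0.0105 with a 95% counting interval of 0.000249 to 0.0572 (log2 change -2.73, adjusted p = 1.62e-08). Os11t0240600 had values between 33.7 and 42.1 in all 8 libraries and was not called.

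Downstream of the receptor, the locus similar to SPY, a negative regulator of gibberellin action, was not called, while the transcription activator of gibberellin-induced stem elongation rose. The SPY-like Os08t0559300 had values of 407, 429 and 373 in OsglHAT1-OE, 396, 444 and 436 in GW6a-4.6, and 431 and 424 in Nipponbare, with log2 changes of -0.09 in OsglHAT1-OE (adjusted p = 0.391) and -0.01 in GW6a-4.6 (adjusted p = 0.954). The activator Os02t0776900 had values of 83.2, 85.7 and 71.2 in OsglHAT1-OE, 75.9, 70.9 and 74.4 in GW6a-4.6, and 40.4 and 37.4 in Nipponbare. Both lines were above Nipponbare without overlap, OsglHAT1-OE 2.06-fold higher (log2 change 1.02, SE 0.12, adjusted p = 3.86e-09) and GW6a-4.6 1.9-fold higher (log2 change 0.91, SE 0.12, adjusted p = 6.41e-08). No member carried the DELLA name; a locus outside the members annotated OsGAI, after the Arabidopsis DELLA repressor GAI, was looked up after its values were seen. That locus, Os03t0707600, had values of 619.7, 566 and 510.0 in OsglHAT1-OE, 445, 391 and 403 in GW6a-4.6, and 254 and 224 in Nipponbare and rose in OsglHAT1-OE (log2 change 1.24, adjusted p = 5.79e-15) and in GW6a-4.6 (log2 change 0.79, adjusted p = 9.92e-10).

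Both chitin-inducible gibberellin-responsive loci, named for their induction by an elicitor and by the hormone, fell in both lines by close to the same amount. Os07t0545800 had values of 89.8, 88.3 and 74.9 in OsglHAT1-OE, 95.3, 101 and 96.9 in GW6a-4.6, and 196 and 194 in Nipponbare, and Os07t0583600 had values of 86.5, 84.8 and 77.5 in OsglHAT1-OE, 77.6, 78.8 and 80.95 in GW6a-4.6, and 172 and 171 in Nipponbare. At each, the Nipponbare libraries lay close together and far above the rest. Os07t0545800 was 2.31-fold lower (log2 change -1.20, SE 0.10, adjusted p = 2.06e-12) in OsglHAT1-OE and 1.99-fold lower (log2 change -0.99, SE 0.10, adjusted p = 4.17e-10) in GW6a-4.6. Os07t0583600 was 2.07-fold lower (log2 change -1.04, SE 0.10, adjusted p = 8.18e-11) in OsglHAT1-OE and 2.17-fold lower (log2 change -1.11, SE 0.10, adjusted p = 2.49e-11) in GW6a-4.6. Of the pair annotated gibberellin responsive1, Os01t0571100 was called in GW6a-4.6 (log2 change 0.63, adjusted p = 0.00571), a call lost without Nipponbare replicate 1. In OsglHAT1-OE its log2 change of 0.43 was not called (adjusted p = 0.0513). That comparison was called under 7 of 19 alternatives, among them median-ratio scaling, quantile normalization, edgeR and DESeq2. The difference between the lines was not called (adjusted p = 0.399).

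The GASA family of small secreted cysteine-rich proteins, known for their induction by gibberellin, was mixed. Of 8 tested loci, 2 were higher (25%) and 4 lower (50%) in each line. The higher share was close to that of all loci, 22.8% in OsglHAT1-OE and 26.7% in GW6a-4.6. The lower shares of all loci were 29.7% and 19.5%. Without Nipponbare replicate 1, the number lower in GW6a-4.6 was 2. By log2 change, Os07t0592000 showed the largest fall of all 61 tested members in OsglHAT1-OE, although by fold that of the low-read Os08t0474866 was larger. The values of Os07t0592000 were 14.1, 9.39 and 11.6 in OsglHAT1-OE, 21.1, 18.5 and 19.2 in GW6a-4.6, and 83.7 and 80.1 in Nipponbare. The 3 groups were apart, and it was 6.99-fold lower (log2 change -2.72, SE 0.18, adjusted p = 5.26e-16) in OsglHAT1-OE and 4.18-fold lower (log2 change -2.01, SE 0.18, adjusted p = 3.22e-12) in GW6a-4.6 than in Nipponbare; OsglHAT1-OE was also 1.67-fold lower (log2 change -0.71, SE 0.16, adjusted p = 0.000463) than GW6a-4.6. Os09t0414900, similar to GASA5, parted the lines, with values of 0.734, 1.3 and 0.884 in OsglHAT1-OE, 5.36, 4.59 and 4.89 in GW6a-4.6, and 4.83 and 6.53 in Nipponbare. Only OsglHAT1-OE stood apart, at 5.83-fold lower (log2 change -1.76, SE 0.29, adjusted p = 3.81e-06) than Nipponbare, while GW6a-4.6 had a log2 change of -0.16 (adjusted p = 0.692). The test of the difference itself put OsglHAT1-OE 5.08-fold lower (log2 change -1.60, SE 0.26, adjusted p = 7.47e-06) than GW6a-4.6.

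The GASA loci that rose did so in both lines. Os06t0266800, similar to a gibberellin-stimulated protein, had values of 85.4, 74.6 and 65.2 in OsglHAT1-OE, 69.3, 58.9 and 64.1 in GW6a-4.6, and 26.9 and 29.2 in Nipponbare, and the lines overlapped each other above Nipponbare. It was 2.68-fold higher (log2 change 1.38, SE 0.13, adjusted p = 1.96e-11) in OsglHAT1-OE and 2.28-fold higher (log2 change 1.16, SE 0.13, adjusted p = 1.79e-09) in GW6a-4.6. Os05t0376800 had values of 6.75, 6.26 and 4.72 in OsglHAT1-OE, 9.28, 8.03 and 9.42 in GW6a-4.6, and 3.22 and 2.69 in Nipponbare, with GW6a-4.6 highest and the groups apart. It was 2-fold higher (log2 change 0.80, SE 0.26, adjusted p = 0.00961) in OsglHAT1-OE and 3.02-fold higher (log2 change 1.33, SE 0.26, adjusted p = 5.54e-05) in GW6a-4.6, and the difference between the lines was not called (adjusted p = 0.078). The call in OsglHAT1-OE was lost without Nipponbare replicate 2.

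The other falls of the family were smaller or rested on few reads. Os06t0729400 was lower in OsglHAT1-OE (log2 change -0.91, adjusted p = 5.91e-05) and GW6a-4.6 (log2 change -0.58, adjusted p = 0.00811), with values of 14.9 to 24.6 in the 6 libraries of the lines, against 37.2 and 33.03 in Nipponbare; the call in GW6a-4.6 was lost without Nipponbare replicate 1 (log2 change -0.50). Os04t0465300, the GASA locus with the highest values, had values of 193, 184 and 155 in OsglHAT1-OE, 176, 168 and 155 in GW6a-4.6, and 207 and 224 in Nipponbare. It was slightly lower in OsglHAT1-OE (log2 change -0.28, adjusted p = 0.0147) and in GW6a-4.6 (log2 change -0.37, adjusted p = 0.00204), and both calls were lost without Nipponbare replicate 2, that of OsglHAT1-OE also without its own replicate 3. Os05t0432200 had 25 reads in OsglHAT1-OE, 4 in GW6a-4.6 and 18 in Nipponbare, and values of 1.17, 1.56 and 0.737 in OsglHAT1-OE, 0, 0.765 and 0 in GW6a-4.6, and 1.76 and 1.15 in Nipponbare. It was called lower in GW6a-4.6 (log2 change -1.01, SE 0.36, adjusted p = 0.0186), and that call was lost when replicate 1 or 3 of GW6a-4.6 or replicate 1 of Nipponbare was left out.

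**Figure D3:**
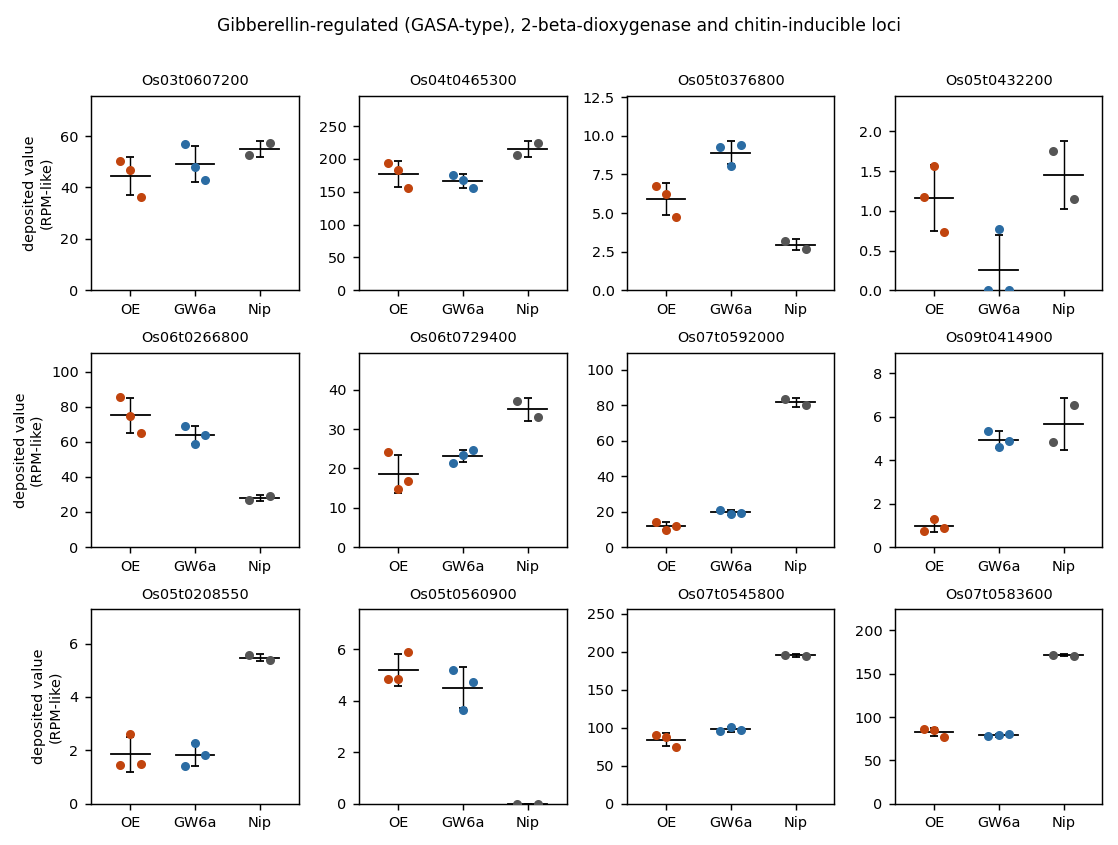
Deposited RPM-like value (linear axes from 0) of the 8 tested GASA-type loci (first 8 panels), the 2-beta-dioxygenase loci Os05t0208550 and Os05t0560900 and the chitin-inducible loci Os07t0545800 and Os07t0583600. Points are libraries of OsglHAT1-OE (OE, n = 3), GW6a-4.6 (GW6a, n = 3) and Nipponbare (Nip, n = 2), with the mean and SD. Os07t0592000 falls in both lines, Os09t0414900 in OsglHAT1-OE, and the model shown for Os05t0560900, not the highest-mean model of that locus, has no reads in Nipponbare.

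**Figure D4:**
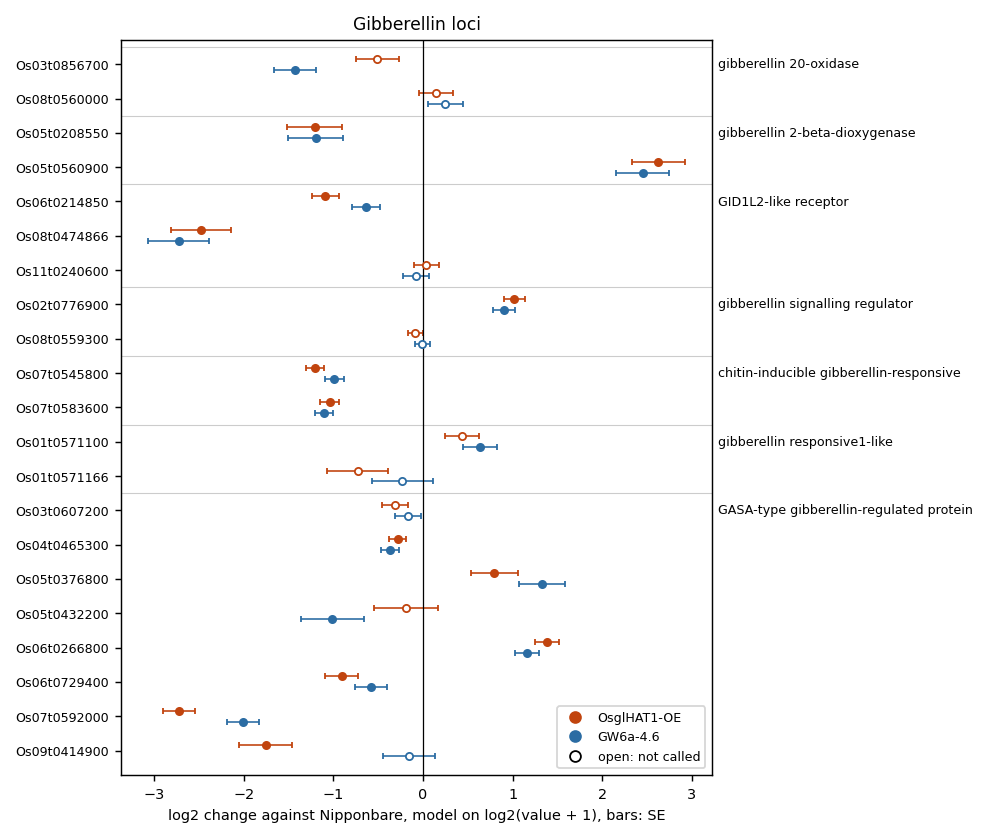
Log2 change against Nipponbare of the 21 tested gibberellin loci by role, from the model on log2(value + 1), with bars for the SE. OsglHAT1-OE is drawn above GW6a-4.6 in each row, filled points are called, and calls lie on both sides of 0, from -2.73 for Os08t0474866 in GW6a-4.6 to 2.62 for Os05t0560900 in OsglHAT1-OE. Os08t0474866 passed the filter on low values through Nipponbare alone, and Os05t0560900 through the lines alone.

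Set against each other, the lines differed at 21 of 61 tested members, 14 higher and 7 lower in OsglHAT1-OE than in GW6a-4.6, where 32.4% of all tested loci were called, 7.69% higher and 24.7% lower. A log2 change of 1 was reached by 0 members that were higher and by 1 that was lower, Os09t0414900 (0.778% and 7.1% of all loci). The libraries did not overlap at 17 members higher and 12 lower (11.3% and 31.4% of loci). The members called higher were 10 cytokinin, 2 gibberellin and 2 text-matched loci, and 5 of them were A-type regulators. This count rested on the scaling and on single libraries. It was 25 under median-ratio scaling, which moved the median log2 change of all loci from -0.13 to 0.01 and the share of calls that were higher from 23.7% to 50.1%. Leaving out OsglHAT1-OE replicate 2 gave 7, leaving out OsglHAT1-OE replicate 1 or GW6a-4.6 replicate 3 gave 8, and leaving out GW6a-4.6 replicate 2 gave 9. The A-type count, 5 higher and 1 lower, was 6 and 1 under median-ratio scaling and 1 to 3 higher without any 1 of those libraries or GW6a-4.6 replicate 1.

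Loci that matched the wording of the rule but were assigned to neither pathway rose where they were called. Of 4 loci similar to phosphate starvation response regulators, 3 were higher in OsglHAT1-OE and 2 in GW6a-4.6. The calls of Os02t0700300, 1 of these in each line, were lost without Nipponbare replicate 2, at log2 changes of 0.59 in OsglHAT1-OE and 0.58 in GW6a-4.6. Os02t0325600 had values of 12.04, 12.7 and 10.6 in OsglHAT1-OE, 13.7, 12.04 and 8.87 in GW6a-4.6, and 4.39 and 4.22 in Nipponbare, with both lines above Nipponbare (log2 change 1.26, adjusted p = 2.18e-05 in OsglHAT1-OE and log2 change 1.22, adjusted p = 4.41e-05 in GW6a-4.6). Os04t0665600 rose in OsglHAT1-OE (log2 change 1.28, adjusted p = 2.81e-05), and its log2 change of 0.53 in GW6a-4.6 was not called (adjusted p = 0.074). Os07t0438800 had the highest values of this kind and was called in neither line. Both ribosomal protein L9 loci, whose annotation adds the words gibberellin-regulated protein, were higher in OsglHAT1-OE, and 1 of them in GW6a-4.6, with log2 changes of 0.48 or less. Of these, the call of Os09t0485900 in OsglHAT1-OE was lost without Nipponbare replicate 2 or OsglHAT1-OE replicate 1. The call of Os02t0103700 in GW6a-4.6 was lost under 6 of 19 alternatives, among them median-ratio scaling, DESeq2 and leaving out Nipponbare replicate 2 (log2 change 0.16) or GW6a-4.6 replicate 1 (0.17) or 3 (0.21). The 3 receiver domain proteins held at most 2 reads in all libraries together.

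The 17 members below the filter had no value above 1.17 in any library. They were 6 glucosyltransferases, 2 cytokinin dehydrogenases, 2 isopentenyltransferases, 1 B-type regulator, 1 20-oxidase, 1 GID1L2-like locus, 1 GASA locus and the 3 receiver domain proteins, and 4 of them had no read in any library. Of the tested members, 3 had every Nipponbare value under 1 (Os04t0524300, Os05t0560900 and Os06t0572300), 1 every OsglHAT1-OE value (Os08t0474866) and 3 every GW6a-4.6 value (Os04t0319800, Os05t0432200 and Os08t0474866), so that these passed the filter through their other groups. On chromosome 6, where the GW6a gene lies, 5 tested members gave 2 higher, 2 lower and 1 not called in each line. Among all loci, 52.5% were called in OsglHAT1-OE and 46.3% in GW6a-4.6, and 5 members are too few to be set apart from these shares.

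Further genes of the pathways were matched by other words of the annotation. Of 18 tested loci of cytokinin perception and activation, among them histidine kinases, phosphotransfer proteins, lysine decarboxylase-like and purine permease-like loci, 4 were higher and 8 lower in OsglHAT1-OE, and 4 were higher and 5 lower in GW6a-4.6. The shares over all loci were 22.8% higher and 29.7% lower in OsglHAT1-OE and 26.7% and 19.5% in GW6a-4.6. The list's higher calls, 22.2% in each line, were thus no more frequent than those of all loci. Its lower calls, 8 of 18 in OsglHAT1-OE and 5 of 18 in GW6a-4.6, exceeded the shares of all loci by few loci, and the excess was not tested. Without Nipponbare replicate 2, the lower calls numbered 5 in OsglHAT1-OE and 3 in GW6a-4.6, those of Os04t0587300 and Os09t0547500 in GW6a-4.6 being lost. In that setting the lower calls of all 31177 tested loci also dropped, to 7266 in OsglHAT1-OE and 4397 in GW6a-4.6. Lysine decarboxylase-like loci, a protein type to which LOG enzymes belong, moved both ways, 2 of 6 being higher and 4 lower in OsglHAT1-OE and 2 higher and 3 lower in GW6a-4.6. Os03t0857900 fell in both lines, with log2 changes of -1.92 in OsglHAT1-OE and -1.42 in GW6a-4.6, as did Os01t0708500 with -1.51 and -0.93, and Os09t0547500 with -1.97 and -0.62. Os03t0109300 of the same type had values of 86.5, 82.03 and 64.7 in OsglHAT1-OE, 61.2, 47.8 and 50.3 in GW6a-4.6, and 14.8 and 16.5 in Nipponbare and rose in both lines (log2 change 2.23, adjusted p = 5.62e-16 and, for GW6a-4.6, log2 change 1.70, adjusted p = 1.67e-12). Os04t0565200, similar to a cis-zeatin O-glucosyltransferase, had values of 2.05, 1.3 and 1.77 in OsglHAT1-OE, 1.25, 1.91 and 2.54 in GW6a-4.6, and 10.1 and 10.2 in Nipponbare and fell in both (log2 change -2.05, adjusted p = 3.51e-07 and, for GW6a-4.6, log2 change -1.97, adjusted p = 9.86e-07).

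Loci annotated to early gibberellin or related diterpene synthesis gave unlike counts in the lines. Of 11 tested loci of kaurene and copalyl diphosphate synthesis and the related cytochromes P450, 2 were higher and 4 lower in OsglHAT1-OE, while 7 were higher and 0 lower in GW6a-4.6. Over all loci, 22.8% were higher and 29.7% lower in OsglHAT1-OE, and 26.7% and 19.5% in GW6a-4.6. Between the lines, 2 of these 11 loci were higher and 5 lower in OsglHAT1-OE than in GW6a-4.6. The shares over all loci were 7.69% and 24.7%. Of the 2, the call of Os03t0332100 was lost with summed transcript models and without any 1 of replicates 1 and 2 of OsglHAT1-OE (log2 changes 0.33 and 0.21) and 1, 2 and 3 of GW6a-4.6 (0.31, 0.28 and 0.32). The kaurene synthase A-like Os02t0278700 had values of 53.3, 44.99 and 36.4 in OsglHAT1-OE, 20.3, 29.2 and 17.9 in GW6a-4.6, and 8.63 and 8.45 in Nipponbare and rose in OsglHAT1-OE (log2 change 2.25, adjusted p = 1.05e-12) and in GW6a-4.6 (log2 change 1.27, adjusted p = 6.82e-07). Some enzymes of this kind make defence diterpenes in place of gibberellin, and the annotation does not tell them apart.

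Lists matched to GRAS or SCARECROW, GAMYB and alpha-amylase, by name and not by response to gibberellin, are set beside the same shares over all loci. These shares were 22.8% higher and 29.7% lower in OsglHAT1-OE and 26.7% and 19.5% in GW6a-4.6. Of 35 tested GRAS and SCARECROW loci, a family that includes the DELLA proteins, 13 were higher and 8 lower in OsglHAT1-OE (37.1% and 22.9%), and 12 were higher and 6 lower in GW6a-4.6 (34.3% and 17.1%). Of 10 GAMYB and GAMYB-binding loci, 1 was higher and 3 lower in OsglHAT1-OE and 3 higher and 1 lower in GW6a-4.6, shares close to or under those of all loci. Without Nipponbare replicate 1, 1 was lower in OsglHAT1-OE, and 1 was higher and 0 lower in GW6a-4.6. Without Nipponbare replicate 2, 0 were higher and 1 lower in OsglHAT1-OE, and its 1 higher call was also lost without OsglHAT1-OE replicate 1 or 2. Of 7 tested alpha-amylases, starch-breaking enzymes that gibberellin induces in the germinating grain, 4 were higher and 0 lower in OsglHAT1-OE, and 5 were higher and 0 lower in GW6a-4.6. Os06t0713800, the amylase isozyme 2A, had values of 15.1, 14.7 and 10.9 in OsglHAT1-OE, 11.2, 11.3 and 12.5 in GW6a-4.6, and 2.93 and 6.91 in Nipponbare and rose in both lines (log2 change 1.37, adjusted p = 1.62e-05 and, for GW6a-4.6, log2 change 1.18, adjusted p = 0.000168, a call lost without Nipponbare replicate 1). The loci named from these lists were picked after their values were seen.

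Among the KNOX-type meristem loci, OSH1 and OSH15 rose too. Of the 10 tested loci of that list, 4 were higher and 3 lower in OsglHAT1-OE, and 4 higher and 1 lower in GW6a-4.6. OSH1 had values of 112, 109 and 95.7 in OsglHAT1-OE, 96.4, 109 and 88.6 in GW6a-4.6, and 33.3 and 29.96 in Nipponbare, and OSH15 had values of 101, 103 and 80.8 in OsglHAT1-OE, 179, 149.7 and 177 in GW6a-4.6, and 50.2 and 47.2 in Nipponbare. Both stood above Nipponbare in all 6 libraries of the lines, OSH1 by log2 changes of 1.70 in OsglHAT1-OE and 1.60 in GW6a-4.6 and OSH15 by 0.94 and 1.77, with adjusted p of at most 7.88e-09.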

How the data were processed

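The authors' deposited table gives 1 signal per transcript model and library, called RPM per the file headers; Bowtie, edgeR and build IRGSP-1.0 are named in the submitters' processing notes, without roles. Every value was a whole multiple of 1 read within 0.01, so whole reads were recovered (100% of values). The planned test, kept although columns summed to 2411271 to 2690367, above the sum of strict RPM, was limma 3.58.1 in R 4.3.3 (lmFit, eBayes with trend) on log2(value + 1), all 8 libraries, a filter at 1 in at least 2 libraries, Benjamini-Hochberg at 0.05. Each locus was its highest-mean model (43481 models, 36819 loci), save that a member locus was its highest-mean model with a matching annotation. For 75 of 78 members this was the highest of the locus, the exceptions being Os05t0560900, Os07t0438800 and Os11t0240600. Alternatives included edgeR 4.0.16 and DESeq2 1.42.0 on the recovered reads and a replicate block: same-numbered libraries correlated at 0.0647 or less, so numbers were not taken as pairs. Replicates differed beyond counting noise (chi-square per degree of freedom 2.09 to 3.98). Members and lists were chosen with earlier results of these data known; after matches were seen, GRAS was matched as a whole word and amylase inhibitors were dropped. Loci named with every library's value were the highest-mean member of each role and those called with a log2 change of 1 or more, beside others named for completeness. No library, cell or sequence data beyond this table were used; intervals cover counting error only.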

Additional observations from a re-analysis of the deposited data

Results flagged for a closer look

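The loci below were taken for a closer look because the lines differed from each other, by the model's own test between them, with a log2 change of 1 or more or with calls on opposite sides of Nipponbare. The GASA5-like Os09t0414900, described above, had a log2 change of -1.60 between OsglHAT1-OE and GW6a-4.6 (adjusted p = 7.47e-06). The lysine decarboxylase-like Os09t0547500 had values of 11.3, 8.22 and 5.31 in OsglHAT1-OE, 25.3, 19.1 and 21.4 in GW6a-4.6, and 29.8 and 38.6 in Nipponbare and a log2 change of -1.35 between the lines (adjusted p = 8.05e-07). The cytochrome P450 Os05t0482400 had values of 2.05, 1.04 and 1.18 in OsglHAT1-OE, 2.86, 3.44 and 5.8 in GW6a-4.6, and 5.56 and 3.07 in Nipponbare and a log2 change of -1.03 (adjusted p = 0.00488), a call lost without GW6a-4.6 replicate 3.

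At 4 early gibberellin and diterpene synthesis loci, OsglHAT1-OE was lower than Nipponbare and GW6a-4.6 higher. The ent-kaurene synthase 1A-like Os02t0570400 had values of 34.2, 34.6 and 33.8 in OsglHAT1-OE, 244, 286 and 262 in GW6a-4.6, and 96.1 and 98.5 in Nipponbare, with a log2 change of -2.91 between OsglHAT1-OE and GW6a-4.6 (adjusted p = 1.19e-24). The ent-copalyl diphosphate synthase 2-like Os02t0570900 had values of 1.91, 3.91 and 2.65 in OsglHAT1-OE, 25.5, 32.5 and 27.9 in GW6a-4.6, and 5.56 and 7.87 in Nipponbare (log2 change -2.98, adjusted p = 1.25e-13). The ent-kaurene oxidase 1-like Os06t0569500 had values of 29.2, 28.8 and 24.2 in OsglHAT1-OE, 135, 120.2 and 120.3 in GW6a-4.6, and 78.7 and 76.04 in Nipponbare (log2 change -2.15, adjusted p = 1.34e-18). The second ent-kaurene synthase 1A-like locus, Os12t0491800, had values of 14.97, 10.7 and 11.8 in OsglHAT1-OE, 113, 118 and 109 in GW6a-4.6, and 29.5 and 23.4 in Nipponbare (log2 change -3.10, adjusted p = 2.83e-20). The reverse held for Os06t0110000, similar to the maize P450 gene DWARF3, with values of 69.9, 67.8 and 52.6 in OsglHAT1-OE, 16.8, 21.4 and 17.02 in GW6a-4.6, and 27.2 and 26.5 in Nipponbare and a log2 change of 1.73 between the lines (adjusted p = 1.51e-12).

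Of 7 tested alpha-amylase loci, 3 were higher in both lines than in Nipponbare and lower in OsglHAT1-OE than in GW6a-4.6, and the other 4 were not called between the lines. Os02t0765600, isozyme 1B, had values of 20.8, 19.8 and 15.6 in OsglHAT1-OE, 198, 171 and 163 in GW6a-4.6, and 2.34 and 1.92 in Nipponbare, with a log2 change of -3.18 between OsglHAT1-OE and GW6a-4.6 (adjusted p = 9.78e-20). Os02t0765400 had values of 6.46, 3.65 and 6.04 in OsglHAT1-OE, 37.3, 33.3 and 23.7 in GW6a-4.6, and 0.585 and 0.576 in Nipponbare (log2 change -2.35, adjusted p = 2.5e-10). Os01t0357400 had values of 3.67, 2.87 and 2.95 in OsglHAT1-OE, 30.3, 25.4 and 17.9 in GW6a-4.6, and 0.146 and 0.192 in Nipponbare (log2 change -2.59, adjusted p = 7.21e-11). Amylase paralogs may share reads.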

How the results depend on the processing

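Against Nipponbare, the counts of members higher and lower stayed within 1.5 times under the 19 alternatives, and 18 of 75 calls of members were lost under at least 1. Between the lines, members higher in OsglHAT1-OE numbered 14, and 25 under median-ratio scaling, 25 under quantile normalization, 26 by edgeR, 23 by DESeq2 and 7 to 15 leaving out 1 library each; members lower numbered 7, and 3 under quantile normalization, 4 by DESeq2 and 5 to 7 leaving out 1 library. The split of all calls moved with scaling too, from 43.4% higher to 52.5% (quantile) for OsglHAT1-OE against Nipponbare. With the replicate number as a block, members higher and lower were 26 and 10 in OsglHAT1-OE, 25 and 10 in GW6a-4.6, and 15 and 7 between the lines; the numbers were not found to pair libraries. Without OsglHAT1-OE replicate 3 they were 28 and 10, 24 and 12, and 15 and 5. Of 4749 recomputed values of 84 loci, the tested members and loci named from the other lists, 4509 kept their side of the threshold, 100 gained a call, 140 lost one and 0 changed sign while called. Loci with values near 1 rest on few reads, where a difference may not be detectable at this depth.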
